A study of Mus musculus with 6 samples.

Results

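The enzymes that run or steer the opposing pathways of glucose production and glucose breakdown were followed in TKPTS, a mouse line derived from the kidney proximal tubule. They were found by gene symbol and made up 10 of the 29595 genes in the deposited table. The set holds Pck1, Pck2, G6pc, G6pc3, Fbp1 and Pcx on the side of gluconeogenesis, and Hk1, Hk2, Pfkfb3 and Ldha on the side of glycolysis. The Hnf3a group (3 libraries, genotype given as HNF3alpha overexpression) had received the plasmid pcDNA3.1-Hnf3a-Flag, and the pcDNA group (3 libraries, genotype given as WT) the plasmid pcDNA3.1-Flag without the insert. Both groups were TKPTS cells, both were transfected, and both were harvested 24 h after transfection. The study's methods describe culture of the line in medium with serum and insulin. For transfected cells they also describe a later switch to serum-free medium, and the medium of the sequenced cells is not stated. The cells come from 1 line, the share of cells that took up plasmid is not given in the sources used here, and the measurement averages over all cells of a culture.

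Gluconeogenesis builds glucose from lactate, glutamine, glycerol and some amino acids. It reuses the reversible steps of glycolysis and bypasses the irreversible ones with pyruvate carboxylase (Pcx), phosphoenolpyruvate carboxykinase (Pck1 in the cytosol, Pck2 in mitochondria), fructose-1,6-bisphosphatase (Fbp1) and glucose-6-phosphatase (G6pc, with the widely expressed relative G6pc3). Apart from liver, the kidney proximal tubule is the main tissue that releases glucose, whereas cultured tubule cells often live by glycolysis. Its flow is set in part by hexokinases (Hk1, Hk2) and by the phosphofructokinase activator made by Pfkfb3. Lactate dehydrogenase (Ldha) turns its product pyruvate into lactate. In liver, FOXA factors such as HNF3α bind control regions of Pck1 and G6pc and assist their response to glucagon and glucocorticoids. The comparison therefore asked whether a surplus of HNF3α moved these enzymes in a kidney cell.

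The sequences just upstream of the first exons are shown for 4 of the enzymes, 2 that lay at the limit of detection (Pck1, G6pc) and 2 abundant ones (Hk2, Ldha). They are RefSeq sequences of the build GRCm38.p6, 5′ to 3′ on the strand of the gene. The Pck1 stretch is chr2:173152823-173153047 on the plus strand, and the capitals mark TTACGTC, the cyclic AMP element form of this promoter. The G6pc stretch is chr11:101367466-101367560 on the plus strand, with TGTTTTG in capitals, a forkhead-like run of letters. The Hk2 stretch is chr6:82774455-82774704 on the minus strand, with the hypoxia response core ACGTG, read on either strand, in capitals. The Ldha stretch is chr7:46845554-46845803 on the plus strand, with ACGTG and the cyclic AMP element TGACGTC in capitals.
Pck1: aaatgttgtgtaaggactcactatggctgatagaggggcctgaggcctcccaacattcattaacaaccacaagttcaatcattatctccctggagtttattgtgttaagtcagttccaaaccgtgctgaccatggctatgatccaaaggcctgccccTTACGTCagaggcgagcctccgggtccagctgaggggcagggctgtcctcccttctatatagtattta
G6pc: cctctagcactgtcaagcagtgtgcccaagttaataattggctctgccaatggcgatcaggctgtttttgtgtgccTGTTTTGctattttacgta
Hk2: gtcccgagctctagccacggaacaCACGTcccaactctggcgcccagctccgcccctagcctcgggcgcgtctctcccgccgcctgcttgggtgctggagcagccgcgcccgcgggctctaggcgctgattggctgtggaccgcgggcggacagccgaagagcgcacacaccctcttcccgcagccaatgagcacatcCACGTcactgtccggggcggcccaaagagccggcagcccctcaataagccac
Ldha: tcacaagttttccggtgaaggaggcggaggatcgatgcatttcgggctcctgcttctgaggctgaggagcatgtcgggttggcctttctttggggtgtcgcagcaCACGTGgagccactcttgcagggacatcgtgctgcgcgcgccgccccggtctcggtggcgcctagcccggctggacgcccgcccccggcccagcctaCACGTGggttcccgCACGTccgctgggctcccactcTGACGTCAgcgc
The Ldha stretch precedes the RefSeq start and lies inside the longer gene as GENCODE vM21 draws it. Over windows from 250 bases before to 50 after the RefSeq starts, the 10 enzymes had 14 windows among 32851. The forkhead motif TGTTTAC, searched on both strands like every motif here, was in 0 of the 14 windows and in 3.65% of all windows, and TATTTAC was in 0 of 14 and in 3.04%. ACGTG stood in 7 of the 14 windows, of G6pc3, Hk1, Hk2, Ldha, Pcx and Pfkfb3, against 19.62% of all windows. TGACGTC stood in 1 window (Ldha) and in 3.21% of all. TTACGTC, which shares its last letters with TGACGTC, stood in 1 window (Pck1) and in 0.87% of all, and TGTTTTG in 2 (G6pc, Pck2) and in 6.28% of all. These last 2 motifs were added after the sequences had been seen. A match is a run of letters and not a bound site.

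The plasmid's gene was checked first. Foxa1, which codes for HNF3α, had 334, 296 and 284 FPKM (fragments per kilobase of transcript, scaled to library size) in the Hnf3a libraries, always given in the order of replicates 1 to 3, and 9.49, 9.54 and 9.96 FPKM in the pcDNA libraries. The estimated counts gave a 31.3-fold difference between groups (95% interval 28.2 to 34.8, edgeR adjusted p 5.99e-10). Total estimated counts ran from 60473818 to 71154667 per library, and 17824 genes passed the filter on low counts. Of 14 proximal tubule markers 10 were in the table, with a summed level of 2.14 to 2.69 FPKM per library, led by the water channel Aqp1. Slc34a1, Slc22a6, Slc22a8 and Slc13a3 are not analysed here. Lrp2, Cubn, Slc5a2 and Hnf4a, which define the tubule segment, each stayed under 0.1 FPKM in every library, whereas 7 general epithelial markers, such as Krt18 and Cdh1, summed to 837 to 915 FPKM. Hnf3a replicates 2 and 3 stood apart from the other libraries, with 7 fibroblast markers at a summed 7.58 and 9.45 FPKM against 0.101 to 0.228 in the other 4 libraries. The 9 macrophage markers summed to 17.4 and 19.3 FPKM against 12.5 to 14.3. Most of this sum was Cd68, at 11.6 and 12.7 FPKM in Hnf3a replicates 2 and 3 and 10.8 to 12.3 elsewhere. Of the 9, all 9 were above 12 counts in each of these 2 libraries, and 2 to 4 in the other libraries. The summed skeletal muscle markers were at 4.35 and 4.96 FPKM in these 2 libraries and at 1.03 to 1.76 elsewhere, and the liver markers were lowest in them, at 5.66 and 5.57 FPKM against 8.63 to 14.7.

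No enzyme passed the test between the Hnf3a and pcDNA groups. Of these, 7 (Pck2, G6pc3, Pcx, Hk1, Hk2, Pfkfb3 and Ldha) had enough counts to be tested, and 0 of the 7 reached an adjusted p under 0.05 in edgeR's quasi-likelihood test, in DESeq2 or in limma, where edgeR called 3.17% of all genes tested, 1.04% as higher and 2.13% as lower in the Hnf3a group. At an unadjusted edgeR p under 0.05 there was 1 (Ldha), against 13.5% of all genes. The groups of normalized counts overlapped in all 7, while 18.9% of all genes tested had groups that did not overlap. The 7 log2 fold changes lay between -0.08 and 0.07, with 1 above and 6 below 0 and a median of -0.07, beside a median of 0.00085 over all genes. All 7 of the 95% intervals stayed within 0.5 on the log2 scale on either side of 0, a width that 11005 of the 17824 genes tested also kept to. No source says that replicates were separate cultures or transfections, so p-values measure the spread between these libraries, which may be technical. In these bulk samples fewer cells that express a gene and less RNA per cell cannot be told apart.

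**Figure D1:**
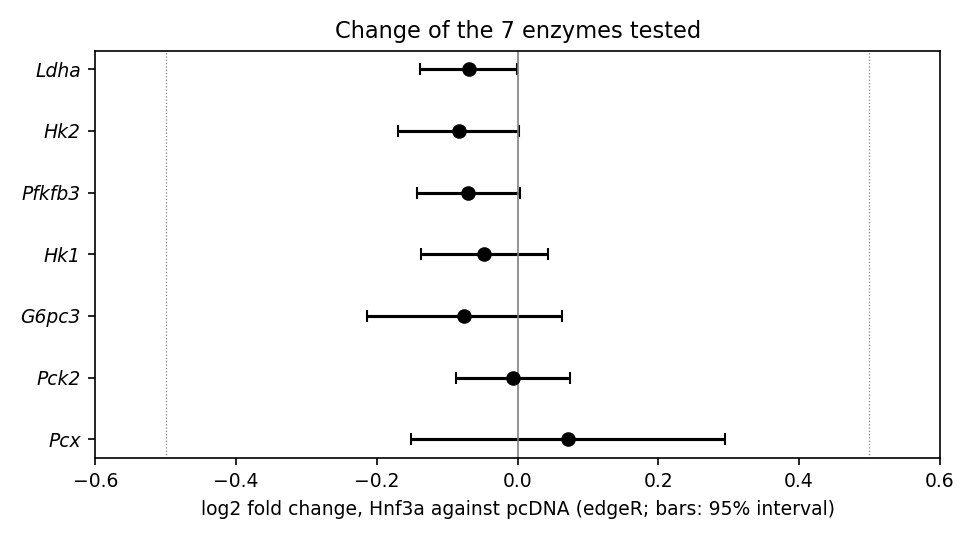
Log2 fold change of the 7 enzymes tested, Hnf3a against pcDNA (3 libraries each), on the x axis, with the 95% interval from edgeR as bars and dotted lines at 0.5 on either side of 0. All 7 points sit between -0.08 and 0.07 and no interval reaches a dotted line.

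In abundance the enzymes ran from the top of the transcriptome to the limit of detection. Averaged over the 6 libraries, Ldha stood at 309 FPKM, Hk2 at 44.5, Pfkfb3 at 26.3, Hk1 at 14.4, G6pc3 at 11.6, Pck2 at 8.71 and Pcx at 1.49 FPKM. In this order the ranges of neighbouring enzymes over the 6 libraries did not overlap. Fbp1, Pck1 and G6pc followed with means of 0.0222, 0.0192 and 0.00196 FPKM, and their ranges overlapped. In the pcDNA group Ldha lay at the 99.7th percentile of all genes in the table by FPKM, Hk2 at the 96.4th, Pck2 at the 81.5th and Pcx at the 62.4th. Among the 7 enzymes tested, the highest library exceeded the lowest by between 1.05 times (Pck2) and 1.18 times (Pcx) in counts scaled to library size.

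**Figure D2:**
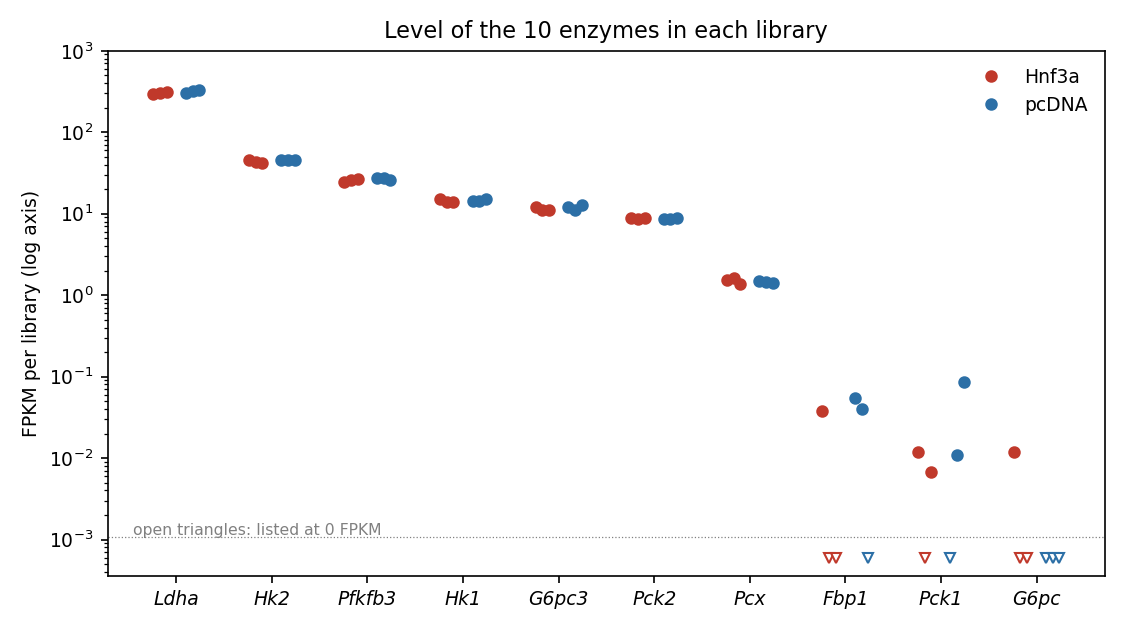
FPKM of each of the 10 enzymes in each library (log axis), Hnf3a in red and pcDNA in blue, with open triangles for libraries listed at 0. The 7 tested enzymes lie between 1.38 and 327 FPKM with little spread, and Fbp1, Pck1 and G6pc stay under 0.1 FPKM in every library.

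The hormone-responsive gluconeogenic genes Pck1, G6pc and Fbp1 lay at or near the limit of detection in both groups. Pck1 (chromosome 2, 173153048 to 173159273, plus strand, GRCm38, as are all coordinates here), the cytosolic carboxykinase, had 3, 0 and 2 estimated counts in the Hnf3a libraries against 0, 3 and 22 in the pcDNA libraries. Only the library pcDNA replicate 3 was above the detection floor of 12 counts, which is about 3 sequenced fragments and corresponds to about 0.0479 FPKM of Pck1. G6pc (chromosome 11, 101367561 to 101377903, plus strand), the glucose-6-phosphatase of glucose-releasing tissues, had 3 counts in Hnf3a replicate 1 and 0 in the other 5 libraries. Fbp1 (chromosome 13, 62864753 to 62888282, minus strand), the bisphosphatase of liver and kidney, had 5, 0 and 0 counts in the Hnf3a libraries against 7, 6 and 0 in the pcDNA libraries. These 3 genes did not pass the filter on low counts, and no difference was detectable at this depth. A rise of Pck1, G6pc or Fbp1 to more than the floor was not seen in any Hnf3a library, with Foxa1 31.3-fold higher.

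Of the carboxykinases and glucose-6-phosphatases, the forms measured well above the floor were Pck2 and G6pc3. Pck2 (chromosome 14, 55540266 to 55551242, plus strand), the mitochondrial carboxykinase, had 8.78, 8.55 and 8.83 FPKM in the Hnf3a libraries and 8.51, 8.64 and 8.97 FPKM in the pcDNA libraries. The pcDNA libraries bracketed all 3 Hnf3a libraries, and the ratio of the groups was 0.996 (95% interval 0.941 to 1.05, edgeR adjusted p 0.976), and thus the closest to 1 of the 7. The lowest Pck2 library was 98.9-fold above the highest value of Pck1, and Pck2 made up 99.1% to 100% of the summed FPKM of the pair. G6pc3 (chromosome 11, 102189620 to 102194081, plus strand), which hydrolyses glucose 6-phosphate and related sugars in most cells, had 11.96, 11.1 and 11.1 FPKM in the Hnf3a libraries and 12.2, 11.0 and 12.6 FPKM in the pcDNA libraries. One pcDNA library lay below and 2 above the whole Hnf3a range, with a ratio of 0.949 (95% interval 0.862 to 1.04, edgeR adjusted p 0.704). The lowest G6pc3 library was at least 233-fold above the floor of G6pc. Among the 3 glucose-6-phosphatase genes, with G6pc2, the form of pancreatic islets, at 0.159 ± 0.0991 FPKM in the Hnf3a and 0.236 ± 0.0502 FPKM in the pcDNA group (SD, n = 3), G6pc3 made up 97.6% to 99.2%.

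Pcx (chromosome 19, 4510472 to 4621752, plus strand), which makes oxaloacetate from pyruvate both for gluconeogenesis and to refill the citric acid cycle, was the lowest of the enzymes tested. It had 1.55, 1.64 and 1.38 FPKM in the Hnf3a libraries and 1.5, 1.43 and 1.4 FPKM in the pcDNA libraries. Hnf3a replicate 3 was the lowest of all 6 libraries and Hnf3a replicates 1 and 2 were the highest. The log2 fold change was 0.07 (95% interval -0.15 to 0.30, edgeR adjusted p 0.861), the widest interval of the 7 and the one value above 0. Fbp2, the muscle isozyme of fructose-bisphosphatase, supplied 69.8% to 100% of the summed FPKM of the bisphosphatase pair, but from only 10 to 30 counts per library.

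Among the glycolytic enzymes Hk2 (chromosome 6, 82725025 to 82774454, minus strand), the insulin-responsive hexokinase of muscle, fat and growing cells, was the main form. It had 46.2, 42.6 and 41.3 FPKM in the Hnf3a libraries and 45.1, 45.8 and 46.2 FPKM in the pcDNA libraries. Hnf3a replicates 2 and 3 were the lowest libraries and Hnf3a replicate 1 lay at the top of the pcDNA range. The log2 fold change was -0.08 (95% interval -0.17 to 0.0021, edgeR adjusted p 0.388), and without Hnf3a replicate 1 it was -0.14 (edgeR adjusted p 0.0275), the single call of any of the 10 enzymes under any alternative setting. With Hnf3a replicate 1 alone against the pcDNA libraries it was 0.02. The libraries that were low in Hk2 are those that were high in fibroblast, macrophage and muscle markers, whose part in the value was not tested.

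Hk1 (chromosome 10, 62268855 to 62379908, minus strand), the housekeeping hexokinase, had 15.0, 13.9 and 13.7 FPKM in the Hnf3a libraries and 14.4, 14.2 and 15.2 FPKM in the pcDNA libraries. Hnf3a replicate 1 was the highest of its group, as for Hk2, and lay inside the pcDNA range, and the ratio of the groups was 0.968 (95% interval 0.909 to 1.03, edgeR adjusted p 0.718). Hk2 held 74.8% to 76.2% of the summed FPKM of Hk1, Hk2, Hk3 and Hkdc1, and Hk1 23.7% to 24.9% in the 6 libraries. Hk3 had 4, 51 and 51 counts in the Hnf3a libraries against 34, 10 and 4 in the pcDNA libraries, and its higher Hnf3a libraries are the 2 with more macrophage markers. Hkdc1 had at most 8 counts in a library.

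Pfkfb3 (chromosome 2, 11471433 to 11554077, minus strand) makes fructose 2,6-bisphosphate, the activator of phosphofructokinase. It had 24.8, 25.9 and 26.4 FPKM in the Hnf3a libraries and 27.2, 27.1 and 26.1 FPKM in the pcDNA libraries. Hnf3a replicate 3 lay above pcDNA replicate 3 and the other 2 Hnf3a libraries lay below all pcDNA libraries, and the log2 fold change was -0.07 (95% interval -0.14 to 0.0032, edgeR adjusted p 0.402). Pfkfb3 made up 82.6% to 85.9% of the FPKM of its family, on average 82.9% in the Hnf3a and 84.7% in the pcDNA group. Its relative Pfkfb2, the heart form, had 2.25, 2.26 and 2.21 FPKM in the Hnf3a libraries and 1.63, 1.96 and 1.87 FPKM in the pcDNA libraries. Every Hnf3a library was above every pcDNA library, and the log2 fold change of 0.29 (95% interval 0.12 to 0.46) did not pass the threshold (edgeR adjusted p 0.0699). Pfkfb1 (1.95 and 1.94 FPKM in the Hnf3a and pcDNA groups) and Pfkfb4 (1.10 and 1.08 FPKM) had log2 fold changes of 0.00 and 0.01.

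Ldha (chromosome 7, 46841475 to 46855627, plus strand), the subunit of lactate dehydrogenase that prevails in glycolytic cells, was by far the most abundant of the enzymes. It had 293, 301 and 314 FPKM in the Hnf3a libraries and 304, 316 and 327 FPKM in the pcDNA libraries. The lowest library was Hnf3a replicate 1 and the highest pcDNA replicate 3, with an overlap between the groups in the middle. The ratio of the groups was 0.953 (log2 fold change -0.07 with a 95% interval of -0.14 to -0.00054, unadjusted p 0.0485, edgeR adjusted p 0.363), and the difference between the group means was smaller than the range of FPKM within either group. Ldhb, the form of oxidative tissues, had 132 ± 6.87 FPKM in the Hnf3a and 137 ± 2.64 FPKM in the pcDNA group (SD, n = 3), so that Ldha supplied 69.2% to 70.0% of the pair in every library. The pseudogene copy Ldha-ps2, whose reads can be confused with those of Ldha, had 479 to 563 counts, against 67985 to 78820 for Ldha.

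**Figure D3:**
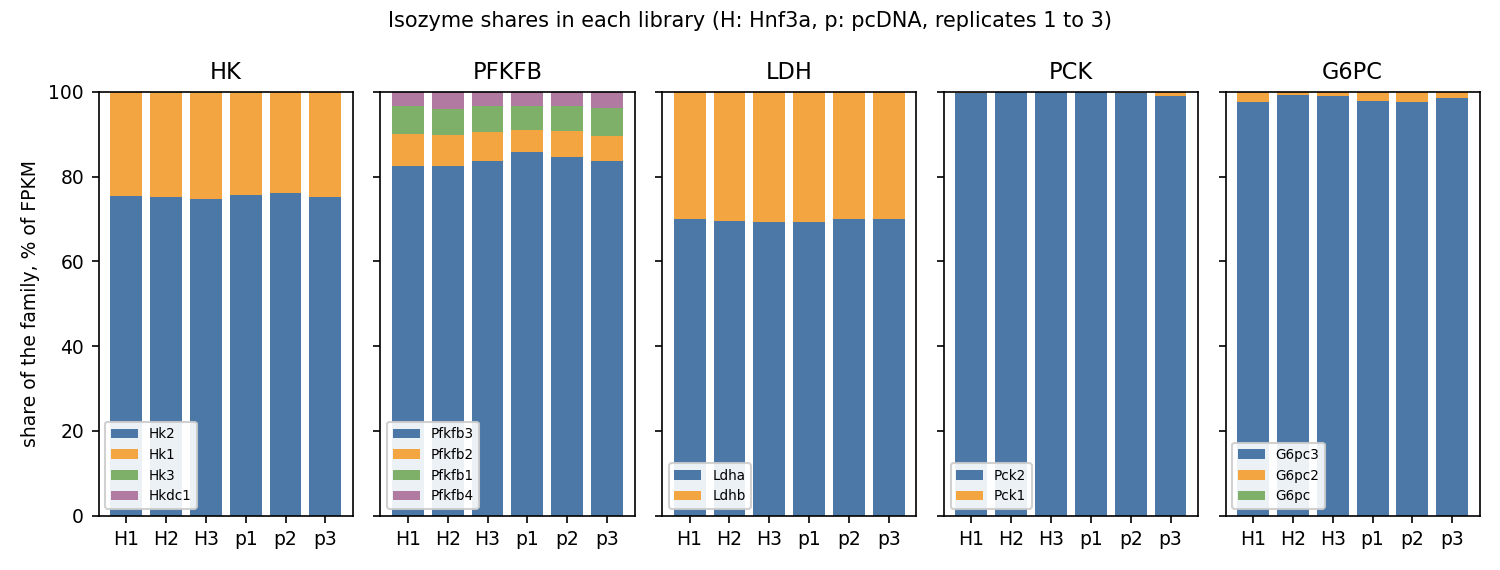
Share of each isozyme in the summed FPKM of its family (y axis, %) in Hnf3a replicates 1 to 3 (H1 to H3) and pcDNA replicates 1 to 3 (p1 to p3), for the hexokinases Hk1, Hk2, Hk3 and Hkdc1, PFKFB enzymes, lactate dehydrogenases, carboxykinases and glucose-6-phosphatases. Hk2 at 74.8% to 76.2%, Pfkfb3 at 82.6% to 85.9% and Ldha at 69.2% to 70.0% hold nearly the same share in all 6 libraries.

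Pck2, Hk1, Hk2 and Pfkfb3 each overlap an antisense gene, Pcx overlaps Lrfn4 on the opposite strand, and Pfkfb3 also overlaps Gm37975 on its own strand. The libraries marked strand, but its use in counting is not given in the sources used here, so reads of these partners may be included in the values. The longest annotated transcripts of the enzymes have between 5 (G6pc) and 21 exons (Pcx). Leaving out Hnf3a replicates 2 and 3 together was a setting chosen after the data were seen. In this setting 8 enzymes passed the filter on low counts in place of 7. The added one was Pck1, through the 22 counts of pcDNA replicate 3, and no fold change is given for it. Of the 7 enzymes tested with all libraries, Pck2, G6pc3, Pcx, Hk1 and Hk2 were then above 0, Pcx the highest at 0.11, and Pfkfb3 and Ldha both stood at -0.11.

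In the surrounding pathways the share of genes that edgeR called was near that of all genes. Of 99 further genes in 6 lists, 95 were tested, and edgeR called 3 of them, 2 higher (Glul, Ppara) and 1 lower (P4ha2) in the Hnf3a group, beside 3.17% of all genes. At an unadjusted edgeR p under 0.05 there were 23 of the 95, beside 13.5% of all genes. DESeq2 called 8 of the 95, beside 819 of all 17824 genes. The median log2 fold change over the 95 genes was -0.01, with 9 genes higher and 12 lower without overlap of the groups, beside 18.9% of all genes. Of 10 isozymes of the enzymes 8 were tested and 0 were called in edgeR, with 1 (Pfkfb2) at an unadjusted p under 0.05 and a median of 0.07. Of the 18 genes of the other glycolysis steps 0 were called in edgeR and 3 had an unadjusted p under 0.05, beside 13.5% of all genes, with a median of -0.04. The smallest p belonged to Tpi1, triose phosphate isomerase, at 204 and 218 FPKM in the Hnf3a and pcDNA groups (log2 fold change -0.11, edgeR adjusted p 0.159). Pfkl, the liver-type phosphofructokinase, had a log2 fold change of -0.11 (edgeR adjusted p 0.264).

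Of 17 genes that supply gluconeogenesis, 1 was called higher, beside 1.04% of all genes tested. Glul, glutamine synthetase, had 3.93, 4.32 and 4.19 FPKM in the Hnf3a libraries and 3.36, 3.21 and 3.36 FPKM in the pcDNA libraries. Every Hnf3a library exceeded every pcDNA library, and the log2 fold change was 0.32 (95% interval 0.16 to 0.47, edgeR adjusted p 0.0281). Glul makes glutamine from glutamate, the reverse of the glutaminase step by which glutamine feeds gluconeogenesis. Its edgeR adjusted p was 0.142 and 0.072 without Hnf3a replicates 2 and 3 in turn, 0.0934, 0.132 and 0.081 without pcDNA replicates 1, 2 and 3 in turn, 0.33 without Hnf3a replicates 2 and 3 together, and 0.0693 with the replicate number as a block. Gpt2 and Glud1, which lead from amino acids into the citric acid cycle, had log2 fold changes of 0.15 and 0.07 (edgeR adjusted p 0.342 and 0.401). Of the 12 genes tested for the fate of pyruvate 0 were called in edgeR, beside 3.17% of all genes. Beside 13.5% of all genes, 1 had an unadjusted edgeR p under 0.05. This was Pdp1, an activating phosphatase of pyruvate dehydrogenase, at 3.67 and 4.33 FPKM in the Hnf3a and pcDNA groups (log2 fold change -0.25, edgeR adjusted p 0.109), followed by Pdp2 with -0.10 (edgeR adjusted p 0.533) and Pdk2 with 0.33 (edgeR adjusted p 0.635).

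Among 25 tested genes of hormone and transcription control besides Foxa1, 1 was called higher, beside 1.04% of all genes. Of the 25, 9 had an unadjusted edgeR p under 0.05, beside 13.5% of all genes. Ppara, a nuclear receptor of the fasting response, had 17, 35 and 46 counts in the Hnf3a libraries against 0, 7 and 0 in the pcDNA libraries, all 3 of which lay under the floor. For Ppara, the edgeR adjusted p between the 2 groups of counts was 0.048. Against the floor, the mean of its Hnf3a libraries was at least 2.58-fold higher, a bound that was not tested. No library was above 0.157 FPKM. Its higher libraries, Hnf3a replicates 2 and 3, are those with more transcripts of fibroblast, macrophage and muscle markers, whose part in the value was not tested. The edgeR adjusted p was 0.2 and 0.193 without Hnf3a replicates 2 and 3 in turn, 0.202 and 0.177 without pcDNA replicates 1 and 3 in turn, 0.551 without Hnf3a replicates 2 and 3 together, and 0.076 with the replicate number as a block. Foxo3, a forkhead factor restrained by insulin, had 8.33, 7.29 and 7.33 FPKM in the Hnf3a libraries and 8.63, 8.76 and 9.93 FPKM in the pcDNA libraries (log2 fold change -0.26, edgeR adjusted p 0.0541). Srebf1, a factor of lipid synthesis, had a log2 fold change of 0.12 (edgeR adjusted p 0.0912).

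Of 15 hypoxia-inducible genes, a group to which Hk2, Pfkfb3 and Ldha also belong, 1 was called lower, beside 2.13% of all genes. Log2 fold changes were below 0 in 12 and above 0 in 3, beside 8874 below and 8950 above 0 among all genes tested. The median was -0.10. P4ha2, a prolyl hydroxylase that matures collagen, had 6.88, 6.99 and 6.98 FPKM in the Hnf3a libraries and 8.16, 7.67 and 8.58 FPKM in the pcDNA libraries. All Hnf3a libraries were below all pcDNA libraries, and the log2 fold change was -0.23 (95% interval -0.34 to -0.13, edgeR adjusted p 0.0149). The edgeR adjusted p was 0.0868 without Hnf3a replicate 2, 0.083 and 0.0865 without pcDNA replicates 1 and 3 in turn, and 0.16 without Hnf3a replicates 2 and 3 together. Glul, Ppara and P4ha2 were not called by limma. Ero1l, an oxidase of protein folding, and Egln3, an oxygen sensor, both had log2 fold changes of -0.15 (edgeR adjusted p 0.0808 and 0.162). Of the 15 genes 7 had an unadjusted p under 0.05, beside 13.5% of all genes. In 5 the groups did not overlap, all of them lower in the Hnf3a group, beside 1663 of all 17824 genes tested that were lower without overlap.

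**Figure D4:**
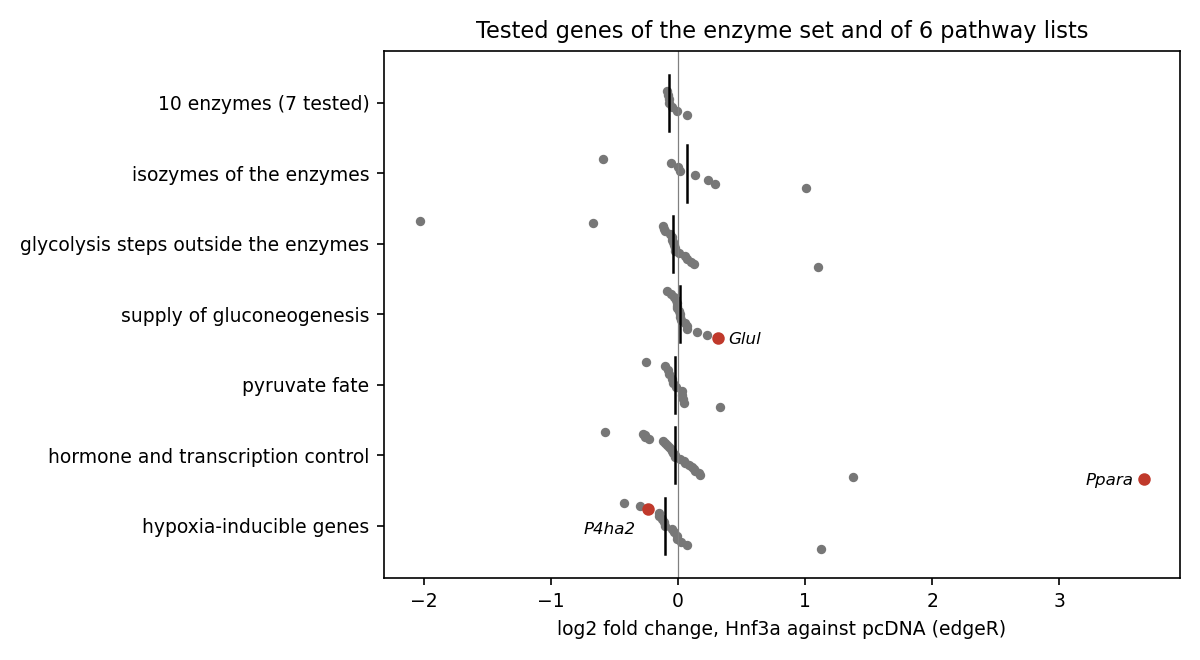
Log2 fold change (x axis, Hnf3a against pcDNA, edgeR) of each gene tested, for the 10 enzymes and for 6 lists of pathway genes, with a black bar at each list's median and genes past the threshold in red. The 7 enzymes form a narrow cluster beside 0, and Glul, Ppara and P4ha2 are the 3 of 95 pathway genes that were called.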

How the data were processed

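Polyadenylated RNA of 6 samples was sequenced from both ends (150 bases per read) in libraries with strand marking and unique molecular identifiers. The authors deposited 1 table that lists, per gene and library, an estimated count beside an FPKM value. Per the labels, cutadapt 1.9, HISAT2 2.0.4, UMI-tools and StringTie 1.3.4d were named, with mm10 as the build. Groups and replicate numbers came from the labels.

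The deposited estimated counts, which are whole numbers, were filtered with filterByExpr, scaled by TMM and tested two-sided with edgeR 4.0.16 (quasi-likelihood, robust) in R 4.3.3, without a covariate. The Benjamini-Hochberg adjustment ran over all 17824 genes that entered the test, and genes under an adjusted p of 0.05 were called. Intervals are 95% intervals of the fitted fold change. FPKM was used for levels and for limma 3.58.1. The detection floor was 12 counts, about 3 fragments of 4 counts, and covers counting error only. For a single gene, an exact permutation test of these 6 libraries can reach no p below 0.1. The script was tested on simulated data.

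The enzymes and the lists were chosen with earlier results of these data known. Named were all 10 enzymes, Foxa1, every isozyme, and per list the called genes, filled up to 3 by unadjusted p. Ldhc is not analysed here, and 2 genes that the rule also names are not reported here. Alternatives were other filters, scalings, pseudocounts (0.1, 1 and 0.01), DESeq2 1.42.0, the replicate number as a block, counts divided by 4, and leaving out libraries. Leaving out Hnf3a replicates 2 and 3 together, and 2 of the promoter motifs, were added after the data were seen. Coordinates are those of the table, which match GENCODE vM21 (GRCm38) for 25765 of 29514 shared genes.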

Additional observations from a re-analysis of the deposited data

How the results depend on the processing

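The count of called enzymes stayed at 0 under every alternative run except for the libraries left out singly, where it ranged from 0 to 1. Of the 95 pathway genes tested, 3 were called, against 5 with a filter of 1 FPKM, 8 with DESeq2, 0 in each of the 3 limma fits, 0 without Hnf3a replicates 2 and 3, and 0 to 5 with single libraries left out. Over all genes 565 were called, against 236, 231 and 245 with limma (pseudocounts 0.1, 1 and 0.01), 322 without Hnf3a replicates 2 and 3, and 263 to 643 with single libraries left out (263 without Hnf3a replicate 2, 286, 267 and 349 without pcDNA replicates 1, 2 and 3). With DESeq2, the 8 of 95 pathway genes stood beside 819 of all 17824 genes. The filter of 1 FPKM left 76 pathway genes tested in place of 95, and the 5 called stood beside 596 of all 12010 genes tested. The replicate block left 1 pathway gene called (P4ha2), 0 enzymes and 463 genes in all. Same-numbered libraries had correlations of -0.0411, -0.0102 and 0.00998 over all genes tested, after the group means were removed. These values show no shared deviation, but they cannot tell whether same-numbered samples were handled together, which the sources used here do not state. The log2 fold change of Pck2 (-0.0063) turned to 0.005473 with total-count scaling, to 0.002307, 0.002074 and 0.002333 in the limma fits, to 0.01197 without Hnf3a replicate 2 and 0.0152 without pcDNA replicate 3 (range -0.021 to 0.0152 over single libraries left out), and to 0.01159 without Hnf3a replicates 2 and 3. Without those 2 libraries G6pc3 stood at 0.005527, Hk1 at 0.04031 and Hk2 at 0.01574, with 1 Hnf3a library left, which is assumed to vary like the pcDNA libraries. Of these values, that of Hk2 lies outside the 95% interval of the reported fit (-0.17 to 0.0021). Glul was called in 7 of 17 alternatives, Ppara in 6 of 15 and P4ha2 in 10 of 17. The causes were not tested. No scaling moved the median of all genes by more than 0.013 on the log2 scale. Depth limits Pck1, G6pc and Fbp1, for which no fold change is given.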

Other observations

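Gapdh, a glycolysis gene that the study used as its internal control in quantitative PCR, was singled out after its values were seen. Its counts were 6755, 18489 and 21042 in the Hnf3a libraries (replicates 1 to 3) against 4592, 10565 and 5226 for pcDNA. Hnf3a replicates 2 and 3 were the highest and the groups overlapped (log2 fold change 1.10, 95% interval -0.50 to 2.70, edgeR adjusted p 0.552). The highest library exceeded the lowest 4.18 times in counts scaled to library size, where the median of 2706 genes over 20 FPKM was 1.10 times and only 5 of those genes spread more. The copies Gapdh-ps15 (3146 to 3659 counts) and Gapdh-ps16 (2302 to 2547 counts), which can share reads with it, spread 1.06 and 1.09 times. Gapdh averaged 49.4 FPKM in the Hnf3a and 22.9 FPKM in the pcDNA group. The neighbouring glycolysis steps Tpi1 (204 and 218 FPKM) and Pgk1 (311 and 323 FPKM) were higher in both groups. The part of shared reads in the level and spread of Gapdh was not tested.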
